A study of Mus musculus with 8 samples.

Results

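The genes Prdm1, Irf4, Xbp1, Jchain, Mzb1, Derl3 and Tnfrsf17, which belong to the programme of the antibody-secreting plasma cell and are not immunoglobulin genes, were followed in mouse knee cartilage. They were picked by name as known plasma cell regulators and secretory genes, with results of the same comparison already known, and all 7 were found by symbol among the 50462 gene identifiers of the count table. Their fold changes and calls in the fit across all genes are therefore given as description, and no p is given for them.

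RNA was sequenced from medial knee cartilage caps of male wild-type C57BL/6J mice, with a single library per mouse. The 4 naive mice were left unoperated and their cartilage was taken at day 0, aged 11 weeks. In the 4 DMM mice the medial meniscus of the left knee was destabilised by cutting its ligament to the tibia, a surgical route to osteoarthritis after injury, and cartilage was taken at day 42, aged 17 weeks. With no sham operation among the groups used here, the surgery cannot be told apart from 6 weeks of ageing.

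Plasma cells are the end stage of the B cell lineage and live mainly in bone marrow and mucosal tissue, where each secretes antibody of a single specificity. Prdm1 and Irf4 switch the B cell programme off and the secretory programme on, and Xbp1 then expands the endoplasmic reticulum (ER) to carry the load of newly made immunoglobulin. Healthy cartilage has no blood vessels and is built by chondrocytes, whereas marrow fills the bone beneath it.

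Total estimated counts lay between 12479443 and 16548002 per library. Normalised counts are these counts divided by a size factor for the depth of each library. The labels give the cell type as chondrocyte, and the chondrocyte markers Acan, the gene of aggrecan, and Col2a1, the gene of type II collagen, were well above 0 in every library, with lowest normalised counts of 5203 for Acan and 15101 for Col2a1. Genes of marrow cells were also present. Neutrophil markers took between 0.852% and 1.18% of the counts in naive and between 0.399% and 0.842% in DMM libraries, and erythroid markers took between 1.1% and 1.85% and between 0.613% and 1.29%. Of the neutrophil markers, 10 of 11 fell with DMM, and of the erythroid markers 9 of 10 (DESeq2 Wald test, the rule for a call given below). Of all genes tested, 5.92% were called lower. The part of this difference in the values of the plasma cell genes was not tested. In bulk tissue, fewer cells of a type and less RNA per cell cannot be told apart.

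Jchain had the largest difference of the 6 genes with an adjusted p, 2.95-fold higher in DMM than in naive cartilage, and Prdm1 was the only other gene whose groups did not overlap. Xbp1 and Irf4, the other regulators, and the secretory genes Mzb1 and Derl3 had overlapping groups. Tnfrsf17 was barely detected. All 7 mean levels were higher in DMM, and 8579 of the 17760 genes tested (48.3%) also were. A gene was called where the Benjamini-Hochberg adjusted p of the DESeq2 Wald test was 0.05 or less and the change was 1.5-fold or more. Of the 6 plasma cell genes that passed the filter on low counts, 2 were called, both higher in DMM, against 13.7% of all genes called in either direction and 7.75% called higher. Groups did not overlap for the same 2 genes, against 22.2% of all genes in either direction, 11.9% higher and 10.3% lower in DMM. Since the genes were listed with this comparison known, nothing is read from these counts. The median log2 fold change of the 6 genes was 0.50, beside -0.02 over all genes tested.

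**Figure D1:**
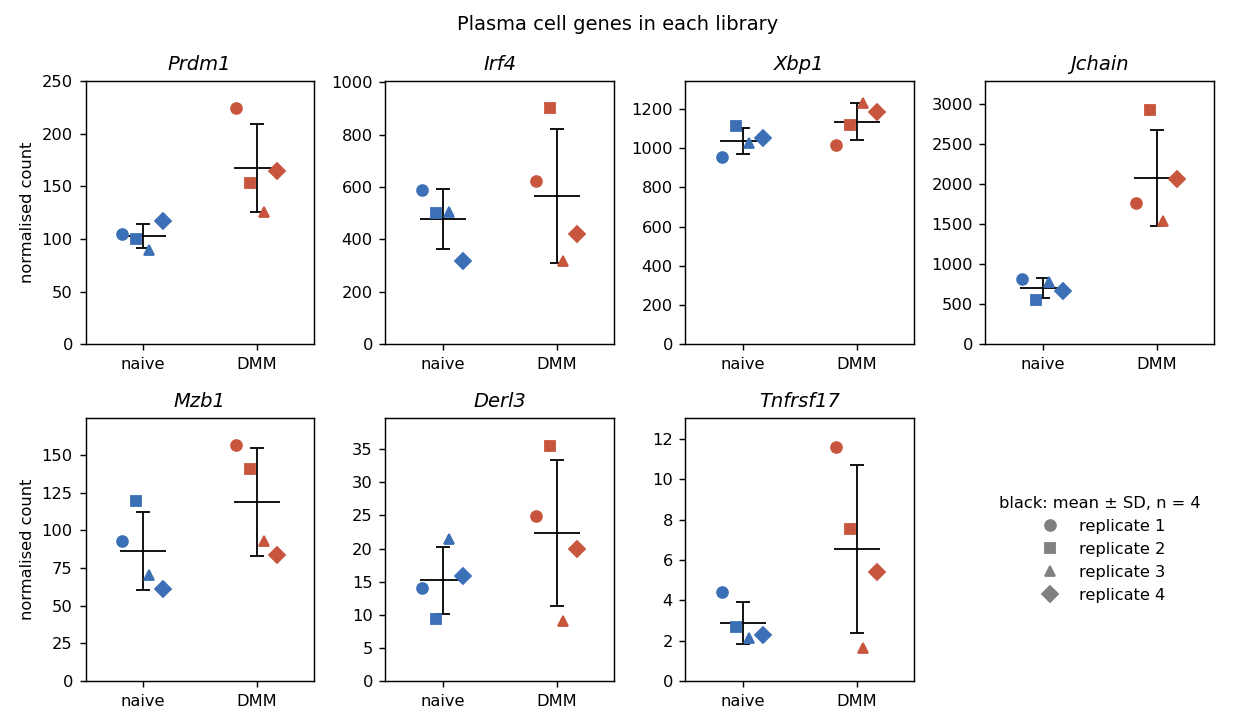
Normalised counts (vertical axes, linear and starting at 0, a separate scale for each gene) of the 7 plasma cell genes in 4 naive and 4 DMM libraries. Each point is a library, its shape gives the replicate number, and black bars give the mean ± SD (n = 4). The naive and DMM points separate fully for Prdm1 and Jchain and overlap for the other 5 genes.

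Prdm1 encodes Blimp-1, the transcriptional repressor that commits B cells to the plasma cell state. The gene lies on chromosome 10 (44437177 to 44528501, minus strand, GRCm38). Its normalised counts were 105, 99.8, 89.9 and 117 in the naive libraries and 225, 153, 126 and 165 in the DMM libraries. The lowest DMM library lay above the highest naive library, and DMM replicate 1 was the highest of all 8. The means were 103 ± 11.2 (SD, n = 4) in naive and 167 ± 41.7 in DMM cartilage, a log2 fold change of 0.70 (SE 0.21, 95% interval 0.29 to 1.12), or 1.63-fold. Without DMM replicate 1 the log2 fold change was 0.52 and Prdm1 was no longer called. Blimp-1 is also made in T cells, macrophages and osteoclasts, so its RNA does not mark plasma cells alone.

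Irf4 encodes an interferon regulatory factor that plasma cells need at a high level and that activated B cells and T cells also make. It lies on chromosome 13 (30749226 to 30766976, plus strand). The naive libraries had 589, 502, 503 and 317 normalised counts and the DMM libraries had 623, 901, 319 and 421. DMM replicates 1 and 2 lay above all naive libraries, and the other pair lay within the naive range. The means were 478 ± 114 and 566 ± 257 (SD, n = 4 each), with a log2 fold change of 0.24 (SE 0.29, 95% interval -0.32 to 0.80). The direction rested on DMM replicate 2, without which the log2 fold change was -0.07.

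Xbp1 encodes the transcription factor that unfolded protein stress activates through splicing of its own mRNA by Ern1, and that turns on genes of protein folding and secretion in all secretory cells, chondrocytes and osteoblasts included. It lies on chromosome 11 (5520659 to 5525893, plus strand). Counts per gene do not separate its spliced from its unspliced form. Its normalised counts were 957, 1115, 1027 and 1053 in naive and 1014, 1117, 1229 and 1184 in DMM libraries. The groups overlapped, and the spread was the narrowest of the 7 genes, with a coefficient of variation of 6.3% in naive and 8.22% in DMM libraries. The log2 fold change was 0.13 (SE 0.10, 95% interval -0.07 to 0.33), so the interval ends below the 1.5-fold limit, which is 0.58 on this scale.

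Jchain encodes the joining chain that links IgA into dimers and IgM into pentamers and that epithelia need to carry both into mucus and milk. It lies on chromosome 5 (88519809 to 88527891, minus strand). Its normalised counts were 819.6, 548, 775 and 669 in the naive libraries and 1767, 2923, 1544 and 2065 in the DMM libraries. Every DMM library was above every naive library. The means were 703 ± 121 and 2075 ± 604 (SD, n = 4 each), a log2 fold change of 1.56 (SE 0.20, 95% interval 1.17 to 1.95), or 2.95-fold. Leaving out each library in turn kept the log2 fold change between 1.35 and 1.68.

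Mzb1 encodes an ER co-chaperone of B and plasma cells that helps to assemble and secrete IgM. The naive libraries had 93.2, 119.7, 70.6 and 61.2 normalised counts and the DMM libraries had 157, 141, 93.0 and 83.9. DMM replicates 1 and 2 lay above all naive libraries, and the other pair lay within the naive range. The log2 fold change was 0.46 (SE 0.28, 95% interval -0.08 to 1.01). Its transcripts share 55.1% of their 31-base words with those of a gene overlapping on the same strand, which had between 0 and 9 estimated counts per library, so the division of reads between the 2 genes is uncertain.

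Derl3 encodes a membrane protein of the ER that passes misfolded proteins to the cytosol for degradation and is abundant in secretory cells such as plasma cells and pancreatic cells. It lies on chromosome 10 (75893413 to 75895941, plus strand). Counts were low, at 14.1, 9.31, 21.4 and 15.9 normalised counts in naive and 24.9, 35.5, 9.06 and 19.9 in DMM libraries. The lowest and the highest of the 8 values were both in DMM libraries. The log2 fold change of 0.54 had an SE of 0.48 and a 95% interval from -0.40 to 1.48, an interval that holds both no change and a change of more than 1.5-fold.

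Derl3 was the only gene, of the 6 plasma cell genes whose promoters were used here, to hold the ER stress response element, the sequence through which the stress factors ATF6 and XBP1 act. The element was searched as CCAAT and CCACG with 9 free bases between them and, for the opposite strand, as CGTGG and ATTGG with 9 free bases between them, in RefSeq promoters (GRCm38.p6, 250 bases before to 50 after the start site). It was found in 37 of 27025 promoters (0.137%) and in 7 of the 21 promoters of ER folding and export genes (33.3%), where Hspa5, the gene of the main ER chaperone BiP, Creld2 and Dnajc3 are examples. The match of Derl3 is on the opposite strand at chr10:75893242-75893260, 137 bases before the start site. The matches of Hspa5 (chr2:34772025-34772043) and Dnajc3 (chr14:118937827-118937845) are on the gene's own strand and that of Creld2 (chr15:88819520-88819538) is on the opposite strand. Each match is printed with its flanks along the gene's strand, so that the fixed letters, in capitals, can be compared across the free bases between them.
Derl3: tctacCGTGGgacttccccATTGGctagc
Creld2: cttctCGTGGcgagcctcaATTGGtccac
Hspa5: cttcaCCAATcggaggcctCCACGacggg
Dnajc3: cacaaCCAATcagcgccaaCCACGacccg
A match is a description of letters and not a measured site of binding. A second stress motif, the unfolded protein response element TGACGTGG (CCACGTCA on the opposite strand), was in 0 of the 6 promoters and in 193 of all 27025 (0.714%).

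Tnfrsf17 encodes BCMA, the receptor through which plasma cells receive the survival ligands APRIL and BAFF, and is among the genes most restricted to late B cells and plasma cells. It lies on chromosome 16 (11313812 to 11320074, plus strand). The estimated counts were 5, 2, 2 and 2 in the naive libraries and 14, 7, 2 and 6 in the DMM libraries. In normalised counts 3 of 4 DMM libraries lay above all naive libraries and replicate 3 lay below them, at 1.65 normalised counts against 2.14 to 4.4. Counts were too few for the filter that DESeq2 applies, so the gene had no adjusted p, and its log2 fold change of 1.17 had a 95% interval from -0.47 to 2.80. Its promoter was the only one of the 6 with the core of the interferon-stimulated response element, searched as GAAA, 2 free bases and GAAA (TTTC on both sides for the opposite strand), a letter pattern that IRF family factors can bind and that 3.99% of all promoters held. The match, at chr16:11313708-11313717, is shown in capitals.
Tnfrsf17: ggtggTTTCtgTTTCaggaa

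Per kilobase of transcript, Xbp1 had the highest level of the 7 in naive cartilage, at 995 ± 62.7 normalised counts per kilobase (SD, n = 4), followed by Jchain at 376 ± 64.8. Mzb1 at 117 ± 35.5 and Irf4 at 100.4 ± 24.0 followed and did not differ beyond their spread. Prdm1 at 31.4 ± 3.42, Derl3 at 22.0 ± 7.25 and Tnfrsf17 at 3.52 ± 1.28 closed the order. In DMM cartilage Jchain, at 1111 ± 324, had reached the level of Xbp1, at 1089 ± 89.5, and the rest kept their order. Among 17706 genes ranked by level per kilobase, Jchain was at percentile 74.5 in naive and 91.6 in DMM cartilage, whereas Xbp1 was at 89.8 and 91.5, and Tnfrsf17 was at 0.9 and 5.6. These levels used the median transcript length of each gene. With the longest transcript, Xbp1 had 488 in naive and 534 in DMM cartilage, beside 300.3 and 886 for Jchain, and Irf4 at 100.3 was above Mzb1 at 95.4 in naive cartilage.

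The immunoglobulin constant genes, the product that these 7 genes serve, were compared next. Of the 11 tested, 3 rose with DMM and none fell, against 7.75% of all genes called higher and 5.92% called lower. Igha, the heavy chain of IgA, rose from 1470.4, 1157, 1012 and 923 normalised counts in naive to 4494, 6808, 3006 and 4046 in DMM libraries. Its log2 fold change was 2.01 (SE 0.23, DESeq2 adjusted p = 1.56e-15) beside 1.56 for Jchain, and the difference between these 2 genes was not tested. Igkc, the kappa light chain, had a log2 increase of 1.16 (SE 0.20, adjusted p = 7.58e-07 by DESeq2), from between 1833 and 2762 to between 4091 and 7666. Iglc1, a lambda light chain, rose by 0.79 (DESeq2 adjusted p = 0.00704), a call that was lost without DMM replicate 2 (0.62, adjusted p = 0.051).

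Ighm, the heavy chain of IgM and the other partner of the joining chain, did not pass the test. Its normalised counts were 3505, 3991, 3321 and 2957 in naive and 6262, 6395, 2707 and 2366 in DMM libraries. The DMM libraries split into a pair above and a pair below all naive libraries, and the log2 fold change was 0.36 (SE 0.37, DESeq2 adjusted p = 0.544). The IgG genes Ighg1, Ighg2b and Ighg2c had log2 fold changes of 0.29, -0.39 and 0.04 and varied widely between mice, with Ighg2b between 434 and 1818 in naive libraries. Ighg3 ranged from 1.8 to 567 among DMM libraries. Ighd, Iglc2 and Iglc3 had log2 fold changes of 0.52, 0.57 and 0.63 and did not pass the test, and reads of Iglc2 and Iglc3 cannot be fully told apart, since 25.1% of the 31-base words of Iglc3 are shared with Iglc2. Each of the 3 was called once a single library was left out, Ighd without naive replicate 1 (0.81, DESeq2 adjusted p = 0.0256), Iglc2 without DMM replicate 3 (0.76, adjusted p = 0.00489) and Iglc3 without DMM replicate 4 (0.87, adjusted p = 0.000897). Other omissions lowered the values. Without DMM replicate 2, Iglc2 had 0.30 (DESeq2 adjusted p = 0.388) and Iglc3 had 0.40 (DESeq2 adjusted p = 0.378), and the lowest value of Ighd without a library was 0.37. Ighe had too few counts to be tested.

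**Figure D2:**
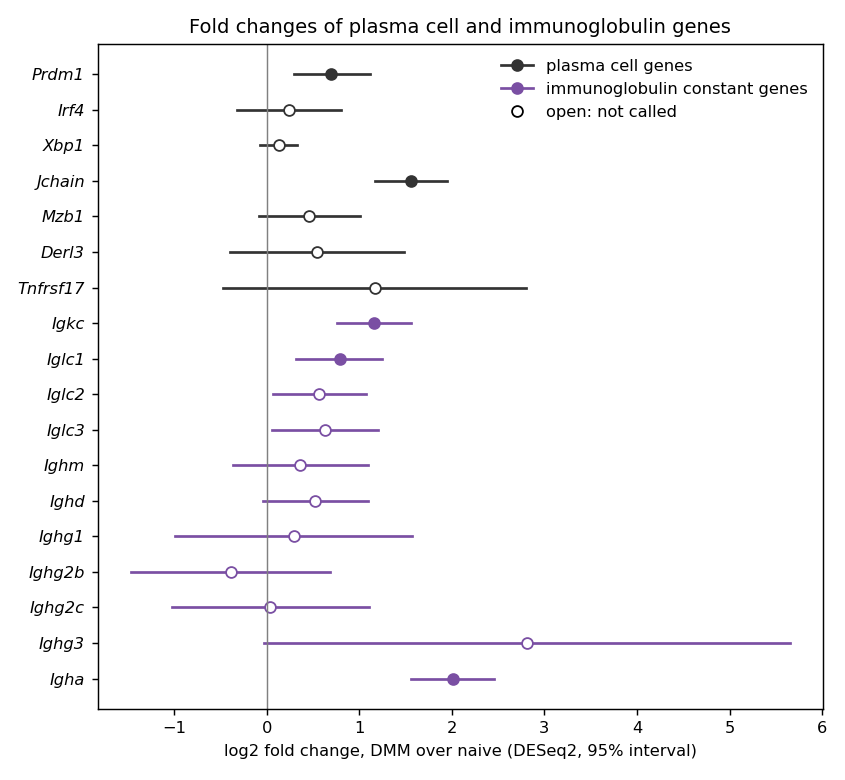
Log2 fold changes of DMM over naive (horizontal axis, DESeq2, bars are 95% intervals, n = 4 per group) for the 7 plasma cell genes and 11 immunoglobulin constant genes. Filled points were called, open points were not, and Tnfrsf17 had no adjusted p. Jchain at 1.56 lies between Igkc at 1.16 and Igha at 2.01.

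Igha took a larger share of the heavy chain counts in every DMM library than in any naive library. It made up 22.2%, 19.3%, 13.8% and 14.5% of them in the naive libraries and 36.2%, 43.9%, 38.4% and 48.5% in the DMM libraries. The log2 ratio of Igha to Ighm was -1.61 ± 0.241 for naive and 0.134 ± 0.512 for DMM mice (SD, n = 4 each, two-sided exact permutation test p = 0.0286, Benjamini-Hochberg adjusted p = 0.081 over 17 values). This ratio was chosen after the values were seen, and 0.0286 is the smallest p that 4 against 4 libraries allow. All immunoglobulin constant genes together took 0.0629% ± 0.0102 of the counts in naive and 0.126% ± 0.0401 in DMM libraries (two-sided exact permutation test p = 0.0286, adjusted p = 0.081), which does not pass the correction.

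**Figure D3:**
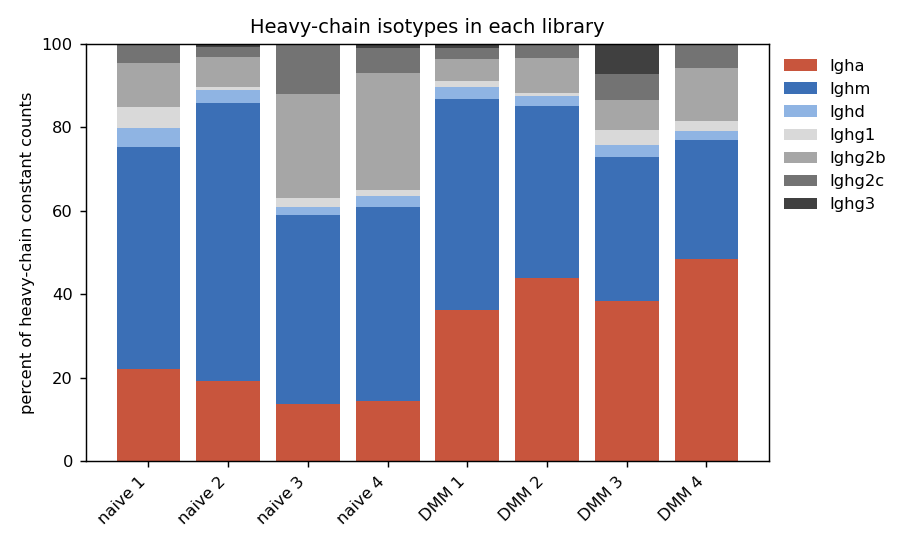
Share of each heavy chain gene in the heavy chain constant counts (vertical axis, percent, 0 to 100) of the 8 libraries. The Igha segment, at the bottom, lies between 13.8% and 22.2% in naive and between 36.2% and 48.5% in DMM libraries.

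Set against immunoglobulin genes, Jchain was lower per Igha count in 2 of 4 DMM libraries, and higher per Igkc count in 3 of 4, than in any naive library. For each 100 Igha counts there were 55.7, 47.4, 76.5 and 72.5 Jchain counts in the naive libraries and 39.3, 42.9, 51.4 and 51.0 in the DMM libraries. For each 100 Igkc counts there were between 25.7 and 34.6 in naive and between 33.1 and 48.0 in DMM libraries. For each 100 counts of Ighm and Igha together there were between 10.6 and 17.9 in naive and between 16.4 and 32.2 in DMM libraries. Each of these ratios overlapped between the groups.

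Mature B cells were followed through 12 markers, such as Cd79a and Ms4a1. The list also holds Cd74 and H2-Aa, genes of antigen presentation that macrophages and dendritic cells make too and that held 61.6% of the list's counts in naive and 60.4% in DMM libraries, so summed values follow these 2 genes most. None of the 12 was called by DESeq2, edgeR or limma-voom, and 1 had an unadjusted DESeq2 p under 0.05. DESeq2 called 7.75% of all genes higher and 5.92% lower. The median log2 fold change was 0.33, and 11 of the 12 were above 0. Their summed share of counts ranged from 0.0495% to 0.0666% in naive and from 0.0543% to 0.105% in DMM libraries, with DMM replicates 1 and 2 the highest (two-sided exact permutation test p = 0.286, adjusted p = 0.347). No marker of the list was at 0 in a library. Of the 12 early B cell markers, Lef1 rose by 0.99 in log2 units (DESeq2 adjusted p = 6.17e-06) and Cd24a fell by 0.73 (DESeq2 adjusted p = 0.00279), both genes being used by other cells too, and the other 10 were not called. The median log2 fold change of the early B cell markers was 0.45, with 10 of 12 above 0, whereas their summed share of counts was lower in DMM by group mean, at 0.085% against 0.0927%. Cd24a held 72.1% of that sum in naive libraries, and without it the log2 ratio of the shares was 0.63 (two-sided exact permutation test p = 0.0286, an alternative chosen after seeing the data).

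Relative to the mature B cell markers, Jchain was higher in all DMM libraries than in any naive library. It had 86.3, 49.0, 103 and 93.9 counts for each 1000 counts of these markers in naive libraries and 144, 207, 199.6 and 289.8 in DMM libraries. Jchain was listed with its difference known, and the marker sums overlapped between the groups. The ratio therefore carries that same difference, and nothing is read from it. The share of all genes with a separated ratio was not computed. The Jchain ratios of the groups did not overlap. Prdm1, with 8.91 to 16.4 in naive and 10.8 to 23.2 in DMM libraries, did overlap. Irf4 had 44.6 to 66.9 in naive and 41.2 to 63.7 in DMM libraries, with overlap, and Mzb1 had 8.6 to 10.7 and 9.95 to 12.8. Counted against the 10 markers other than Cd74 and H2-Aa, an alternative chosen after seeing the data, Jchain had 133 to 268 in naive and 389 to 784 in DMM libraries, again with no overlap, and Prdm1, Irf4 and Mzb1 overlapped. The mean log2 level of the mature B cell markers was also used as a covariate, an alternative chosen after seeing the data. With it, the log2 fold change was 1.45 for Jchain, 0.66 for Prdm1, 0.24 for Mzb1 and -0.11 for Irf4. These values are description, since the genes were listed with the comparison known.

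**Figure D4:**
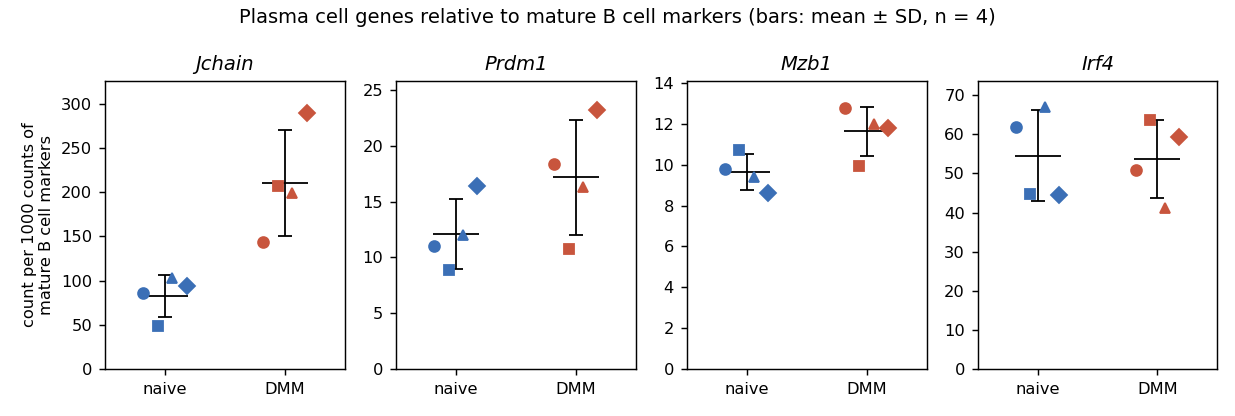
Counts of Jchain, Prdm1, Mzb1 and Irf4 per 1000 counts of 12 mature B cell markers (vertical axes, linear and starting at 0) in 4 naive and 4 DMM libraries, with mean ± SD (n = 4). The Jchain points lie between 49.0 and 103 in naive and between 144 and 289.8 in DMM libraries, and the Irf4 points overlap.

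How the 7 genes vary between mice of the same group does not depend on the comparison by which they were chosen. For this, the group mean of log2(normalised count + 1) was subtracted in each group, and Pearson's r was computed over the 8 libraries, as a description with no p. The points share libraries and depth, and 217 relations were computed in all. Among the 21 pairs of the 7 genes, 14 had r above 0. Jchain and Derl3 had an r of 0.81, Irf4 and Mzb1 0.74, and Irf4 and Jchain 0.68. Xbp1 had a negative r with each of the other 6, from -0.41 with Mzb1 to -0.82 with Tnfrsf17. Tnfrsf17 had between 2 and 14 estimated counts per library, so each r with it rests on few reads.

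Irf4 and Mzb1 had a high r with the B cell markers from mouse to mouse, and also with many other genes. With the mature B cell markers, Irf4 had an r of 0.92 (Spearman's rho 0.81, and r 0.91 without the 2 libraries farthest from the median) and Mzb1 had 0.88 (rho 0.88, and 0.94 without the 2). Mzb1 also had an r of 0.96 with the early B cell markers (rho 0.93, and 0.93 without the 2) and 0.84 with Ighm (rho 0.88, and 0.82 without the 2). The 5 genes most like Irf4 among 13193 genes were Cecr2, Ifi209, Fndc9, Siglecg and Bach2, with r between 0.987 and 0.994, of which Siglecg, an inhibitory receptor of B cells, and Bach2, a repressor that holds B cells back from the plasma cell state, are known in B cells. Those most like Mzb1 were Casz1, H2-K1, Ttyh3, H2-Q6 and Themis2. An r above 0.9 was reached by 124 genes with Irf4 and by 322 with Mzb1. Among the 50 nearest genes, 3 for Irf4 and 1 for Mzb1 were B cell markers, and 0 for both were immunoglobulin genes.

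For Jchain and Derl3 the r was lower with the B cell markers than with the kappa light chain, a difference that was not tested. This did not hold for the immunoglobulin constant genes as a list. With that list the r was 0.32 for Jchain and 0.28 for Derl3, lower than with the mature B cell markers. Jchain had an r of 0.45 with the mature B cell markers, against 0.82 with Igkc (rho 0.71), which fell to 0.53 without the 2 libraries farthest from the median and so rests largely on them. Derl3 had 0.46 with the mature B cell markers and 0.88 with Igkc (rho 0.93, and 0.82 without the 2 libraries). With the erythroid markers the r of Derl3 was -0.89 (rho -0.86, and -0.53 without the 2 farthest libraries), the largest in size of its values with the lists. For Jchain and Igha the r was 0.75 (rho 0.60) and only 0.23 without the 2 farthest libraries. The genes most like Jchain were Gm17816, Elac2, Pappa, Lgals4 and AC160336.1, and 2 of its 50 nearest genes were immunoglobulin genes, of 25 ranked. Those most like Derl3 were Kcnk2, Limch1, Car13, Pxk and AC102159.1.

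Xbp1 had its highest r with the chondrocyte markers and the ER folding genes. The r was 0.90 with the ER folding and export genes (rho 0.93, and 0.74 without the 2 farthest libraries) and 0.96 with the chondrocyte markers (rho 0.93, and 0.86 without the 2), beside -0.49 with the mature B cell markers and -0.52 with Igkc. With the neutrophil markers it was 0.76 (0.58 without the 2). List means were not scaled by gene. Variable genes such as Col9a1 and Matn3, with coefficients of variation of 104% and 108% in naive libraries, therefore weigh most among the chondrocyte markers. Their part in the r was not tested. The 5 genes most like Xbp1 were Nudc, Sec22b, Kif26b, Creld2 and Chmp6, and Creld2, an ER stress gene whose promoter match is printed beside that of Derl3, had an r of 0.967. The r with the ER folding genes was negative for every gene of the 7 but Xbp1, from -0.42 for Jchain to -0.86 for Tnfrsf17. Derl3 and Mzb1, whose products work in the ER, lay within this range. Tnfrsf17 had at most 14 estimated counts in a library, and its r was -0.50 without the 2 farthest libraries. For Prdm1 the r was -0.75 and turned to 0.09 without the 2. Derl3 had -0.73 (rho -0.67, and -0.67 without the 2) and Mzb1 had -0.54 (rho -0.50, and -0.24 without the 2). Prdm1 had an r of 0.85 with the T cell markers, which rested on the 2 farthest libraries (rho 0.50, and r -0.01 without them), 0.22 with the mature B cell markers and 0.67 with the osteoclast markers (rho 0.88, and 0.86 without the 2), and among its nearest genes were A730011C13Rik, Bbs9, Gm16153 and Grk3.

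**Figure D5:**
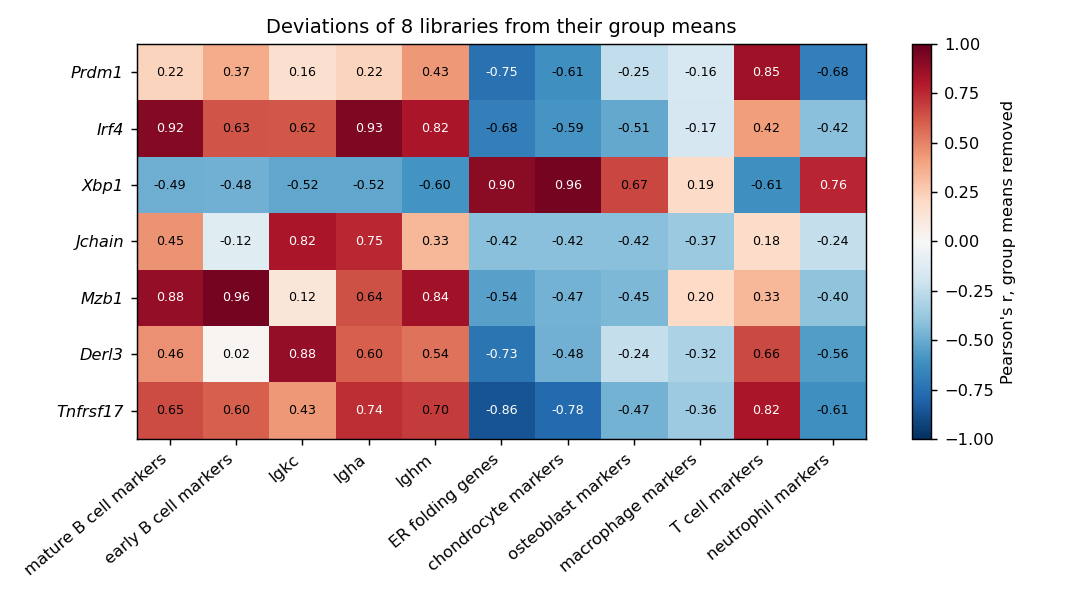
Pearson's r between each plasma cell gene (rows) and marker lists or immunoglobulin genes (columns) over 8 libraries after subtracting the group means, with the value printed in each cell. Irf4 and Mzb1 are highest with B cell markers or Igha, Xbp1 is highest with chondrocyte markers at 0.96 and negative with both B cell marker lists and with Igkc, Igha and Ighm.

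In the lists of ER folding and export genes and of ER stress sensing and degradation genes, no gene was called, against 13.7% of all genes called by DESeq2 in either direction. Of 27 ER folding and export genes, 0 were called by DESeq2, edgeR or limma-voom, 5 had an unadjusted DESeq2 p under 0.05, and the median log2 fold change was -0.02. Of 18 genes of ER stress sensing and degradation, 0 were called by the same 3 tools, 4 had an unadjusted DESeq2 p under 0.05, and the median was 0.05. The summed share of the latter list was 0.114% to 0.124% in naive and 0.126% to 0.137% in DMM libraries, without overlap (two-sided exact permutation test p = 0.0286, adjusted p = 0.081). Sel1l, the partner of the ER ubiquitin ligase that works with the derlins, had a log2 fold change of 0.21 (adjusted p = 0.0433, DESeq2), and Sec61g, a subunit of the channel into the ER, had -0.43 (DESeq2 adjusted p = 0.036), both under the 1.5-fold limit.

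Of 18 other genes known from plasma cells, 1 rose and 2 fell, against 7.75% of all genes called higher and 5.92% called lower. Nothing is read from these counts about the list. Sdc1, which encodes the surface proteoglycan CD138 used to sort plasma cells and is also made by epithelial and skeletal cells, rose 1.0 in log2 units (DESeq2 adjusted p = 2.42e-11), from 322 ± 37.7 to 643 ± 67.3 normalised counts (SD, n = 4 each). Ly6c2 fell by 0.93 (DESeq2 adjusted p = 1.3e-05), and Tent5c, a poly(A) polymerase of secretory cells, fell by 0.83 (DESeq2 adjusted p = 0.00367). Ly6c2 is also made by marrow monocytes. Tent5c is also made by erythroid cells, whose markers were lower in DMM as given above, and the part of those cells in its value was not tested.

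None of the 9 tested survival ligands and receptors, among them Tnfsf13b, which encodes BAFF and binds the product of Tnfrsf17, and Cxcl12, which holds plasma cells in marrow, was called by DESeq2, edgeR or limma-voom, and 2 had an unadjusted DESeq2 p under 0.05. Tnfsf13b had a log2 fold change of -0.50 (adjusted p = 0.0838, DESeq2) and Cxcl12 had 0.05 (DESeq2 adjusted p = 0.895). Of 10 regulators of the B cell state that Blimp-1 opposes, only Id3 was called, which rose by 1.01 (DESeq2 adjusted p = 6.21e-12) and is widely used outside B cells. Bach2, Pax5 and the other 7 were not called. Beside these 2 lists, DESeq2 called 7.75% of all genes higher and 5.92% lower.

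Some of the 7 genes are shared with other cells, and the markers of those cells were counted in the same fit. Of plasmacytoid dendritic cell markers, 0 rose and 1 of 9 fell, of T cell markers 1 rose and 1 of 9 fell, and of macrophage markers 1 of 10 fell and none rose. Of osteoclast markers 1 of 7 rose, of osteoblast markers 8 of 8, and of chondrocyte markers 5 of 10, with none lower. Over all genes tested, 7.75% were called higher and 5.92% lower, and nothing is read from a single call in a short list. T cell markers took 0.00657% to 0.0102% of the counts in naive and 0.00496% to 0.00858% in DMM libraries, and osteoblast markers took 0.893% to 1.3% and 2.53% to 3.14%. Plasmacytoid dendritic cell markers took 0.0288% to 0.0379% in naive and 0.0446% to 0.0482% in DMM libraries, without overlap (two-sided exact permutation test p = 0.0286, adjusted p = 0.081), and this list holds Tcf4 and Runx2, which skeletal cells also make. The part of these cells in the levels of Prdm1, Irf4 and Xbp1 was not tested.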

How the data were processed

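Libraries from 4 naive and 4 DMM mice were analysed, grouped by their titles. The authors trimmed reads, pseudo-aligned them with Kallisto to a mouse transcriptome and summed transcripts to genes with tximport, and the deposited values are estimated counts per gene, of which 39.0% are not whole. The authors' methods name GRCm38, the labels GRCh38, and coordinates here come from the GENCODE vM21 annotation of GRCm38, matched by gene identifier. The labels name an NEB low input kit and the methods a SMART-Seq kit. Whether counting used strand was not given in the sources used here. A symbol was found for 48855 of 50462 identifiers.

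Estimated counts were rounded and tested with DESeq2 1.42.0 in R 4.3.3 (Wald test, median-of-ratios factors, no covariates, all 8 libraries), with edgeR 4.0.16 (quasi-likelihood test), limma 3.58.1 (voom) and other settings as alternatives. Normalised counts are counts divided by DESeq2 size factors. Adjusted p-values cover the 17760 genes that passed its filter. The script was tested on simulated counts. Shares and ratios were tested by exact permutation over 70 assignments of libraries (scipy 1.17.1). Promoter sequences are from RefSeq (GRCm38.p6), and promoters on 1 chromosome were left out.

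The 7 genes and all lists were chosen with earlier results of these data known. Named are the 7 genes, all immunoglobulin constant genes, in each list genes of smallest adjusted p or highest count, and the 5 genes (mean normalised count of at least 50) most alike in deviation from the group means. Some genes that this rule takes are not reported here. The motif examples were chosen after the values were seen. Replicates are separate mice. Same-numbered libraries did not deviate together (r of 0.049, 0.088, -0.174 and 0.126), so numbers were not treated as pairs.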

Additional observations from a re-analysis of the deposited data

Results flagged for a closer look

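In 72 groups of 4 libraries, 3 values lay far from the other 3 of their group, where chance alone flags about 1 group in 20, or 3.6 of 72. None was a value of the 7 plasma cell genes. Ighg2c had 330.1 normalised counts in DMM replicate 1 and 464 to 481 in the other DMM libraries. The survival ligands and receptors took 0.16% of the counts in naive replicate 1 and 0.13% to 0.131% in the other naive libraries. Erythroid markers took 1.29% of the counts in DMM replicate 3 and 0.613% to 0.67% in the other DMM libraries.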

How the results depend on the processing

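The calls of the 7 plasma cell genes were 2 under every alternative but the loss of DMM replicate 1 (1 call, with Prdm1 lost at a log2 fold change of 0.522), a range of 1 to 2 without each library. Without each library in turn, the calls were 2 to 4 for the immunoglobulin constant genes, 3 to 5 for the other plasma cell genes (5 without DMM replicate 4), 2 to 4 for the early and mature B cell markers (4 without DMM replicate 3) and 0 for the ER lists. Over all genes the calls in these fits ran from 1858 without naive replicate 1 to 2842 without naive replicate 4. They were 2652 without DMM replicate 4 and 2224 without DMM replicate 3, so nothing is read from the list counts alone. With the total count as size factor, which moved the median log2 fold change of all genes from -0.016 to 0.137, the calls were 5 for the immunoglobulin constant genes, 5 for the other plasma cell genes and 2519 over all genes. With no fold threshold they were 7 for the other plasma cell genes and 2 for the ER lists, and 4010 over all genes against 2429. The sign turned for Irf4 with the B cell covariate (-0.11) and without DMM replicate 2 (range -0.073 to 0.439), for Ighm with the covariate (-0.068), for Ighg1 without naive replicate 2 (range -0.024 to 0.97) and for Ighg2c without naive replicate 2, naive replicate 1 or DMM replicate 3 (range -0.246 to 0.68). The cause was not tested.

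With the replicate number as a block, 2 of the plasma cell genes, 3 immunoglobulin constant genes, 3 other plasma cell genes, 2 B cell markers and 0 ER genes were called, and 2081 genes in all. No plasma cell or immunoglobulin constant gene gained or lost its call, while Derl3 had no adjusted p in that fit.

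Log2 ratios of shares (1.01 for immunoglobulin constant genes, 0.39 for mature and -0.12 for early B cell markers) lay within 0.79 to 1.14, 0.2 to 0.52 and -0.22 to -0.04 without each library. Without a library the exact test cannot go below 0.0571. Without its most abundant gene, Cd24a, the early B cell ratio turned to 0.63. The intervals of Tnfrsf17 and Derl3 hold both no change and more than 1.5-fold.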
